A study of Mus musculus with 2 samples.

Results

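Lipid-associated macrophage genes are 10 genes that mark macrophages loaded with lipid, namely Trem2, Apoe, Gpnmb, Spp1, Fabp5, Lpl, Cd36, Plin2, Abca1 and Lgals3. They were chosen by symbol, and all 10 were found among the 14654 genes of the deposited table of counts. They are described here across macrophage states, dendritic cells (DC), monocyte-like cells, lymphocytes and CD45-negative cells of tumors from hosts with and without Siah2, a RING ubiquitin ligase. YUMMER1.7, an immunogenic BRAF-mutant mouse melanoma line, was grown subcutaneously for 11 days in male C57BL/6 mice aged 8 weeks that were wild type (WT) or Siah2-/-. The tumor cells themselves were the same line in both groups. Live CD45+ cells were sorted, a smaller number of CD45- cells was mixed back in, and the mix was sequenced with the droplet-based 10x Genomics 3′ assay. The sources used here do not agree on that mixing ratio. There was 1 library per genotype, so genotype, tumor pool, sort, library and lane cannot be told apart, and there was no replicate check of any difference between genotypes.

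Lipid-associated macrophages take up lipid from dying cells, lipoproteins and debris. The receptor TREM2 senses lipid and apolipoproteins, CD36 and lipoprotein lipase bring fatty acids into the cell, FABP5 carries them, perilipin 2 coats the droplet in which they are stored, and ABCA1 passes cholesterol out to acceptors such as apolipoprotein E. GPNMB, osteopontin (Spp1) and galectin-3 (Lgals3) are glycoproteins or lectins that such macrophages make in adipose tissue, atherosclerotic plaque, the injured brain and tumors.

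WT gave 4512 cells and Siah2-/- 5563, with 64781513 and 59080246 unique molecular identifiers (UMIs, 1 per captured transcript). The median was 11434.5 UMIs per WT cell and 8699.0 per Siah2-/- cell. A level is given below as CPM (counts per 1000000), the UMIs of a gene scaled to the UMIs summed over the cells of a gate, and a difference as a log2 ratio of Siah2-/- over WT CPM. Ranges in parentheses are exact 95% intervals, Poisson for a level and binomial for a ratio or a share, and cover counting error only. Siah2 itself was counted at 10.2 CPM (9.43 to 11.0) in WT and 8.55 CPM (7.82 to 9.33) in Siah2-/- cells. Which stretch of Siah2 the knockout lacks is unknown here, and 3′ tags outside a deletion are counted as usual. The level is therefore no check of the genotype, and Siah2-/- names a library by its label.

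Cells were gated on UMIs of marker lists per 10000 UMIs of the cell, and none of the 10 genes was used in a gate. The macrophage gates held 1806 WT and 1765 Siah2-/- cells. Genes of the defining marker list were among the leading genes by fold, Mgl2 and H2-Eb1 in the MHC class II gate, and Ccl8, Gas6 and Folr2 in the resident-like gate. Within the resident-like gate the libraries differed. Fcrls was at 753 CPM in WT and 52.0 CPM in Siah2-/-, Gas6 at 267 and 44.6 CPM and Folr2 at 276 and 89.2 CPM. Ccl8 was higher, at 1810 and 2405 CPM, as was F13a1, at 215 and 239 CPM, and the other genes of that list were lower. The MHC class II gene H2-Aa was at 3057 and 5893 CPM. That gate is thus a different mix in each library, and the part of this in its ratios was not tested. The MHC class II gate held 822 WT and 630 Siah2-/- cells, the interferon-induced gate 316 and 263, the cycling gate 245 and 106, the resident-like gate 217 and 104, and the remaining macrophages 138 and 77. These 5 gates held 96.2% of WT and 66.9% of Siah2-/- macrophages, so all macrophages are a different mix of gates in each library. The CD45-negative gate, 788 and 151 cells, was led by Eln, which encodes elastin. It had Hmga2 at 246 and 168 CPM, but the melanocyte genes Mlana, Pmel and Dct at or under 0.791 CPM, so it is called by its gate and not by a cell type. Its size depends on the cells mixed back in.

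Promoter windows from RefSeq (build GRCm38.p6, 250 bases before to 50 bases after a start) matched 8 of the 10 genes. Fabp5 and Lpl had no entry. Apoe, Plin2 and Lgals3 are shown as well counted examples of genes at least 1.5-fold apart between the libraries in all macrophages, and Gpnmb as an example of a gene counted mostly outside macrophages. Cd36, also 1.5-fold apart but on 54 and 94 UMIs, and Spp1, also counted mostly outside macrophages, are not shown. Capitals mark an E-box (CACGTG), a hypoxia response core (ACGTG or GCGTG, the first lying inside every E-box) or an AP-1 site (TGACTCA), searched on both strands. The windows lie at chr7:19699139-19699438 on the minus strand for Apoe, chr4:86670010-86670309 on the minus strand for Plin2, chr14:47373610-47373909 on the plus strand for Lgals3, and chr6:49036268-49036567 on the plus strand for Gpnmb.
Apoe: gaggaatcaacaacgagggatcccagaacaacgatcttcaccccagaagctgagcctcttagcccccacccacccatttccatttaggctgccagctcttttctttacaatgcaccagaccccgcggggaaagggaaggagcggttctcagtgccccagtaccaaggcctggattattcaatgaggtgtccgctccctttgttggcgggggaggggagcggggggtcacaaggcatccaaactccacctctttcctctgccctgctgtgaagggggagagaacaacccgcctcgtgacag
Plin2: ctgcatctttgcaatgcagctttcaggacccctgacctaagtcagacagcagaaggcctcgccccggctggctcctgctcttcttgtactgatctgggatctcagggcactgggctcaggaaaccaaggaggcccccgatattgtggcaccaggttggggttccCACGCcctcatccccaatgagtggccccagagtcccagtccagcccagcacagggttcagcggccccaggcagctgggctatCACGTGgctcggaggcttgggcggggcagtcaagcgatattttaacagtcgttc
Lgals3: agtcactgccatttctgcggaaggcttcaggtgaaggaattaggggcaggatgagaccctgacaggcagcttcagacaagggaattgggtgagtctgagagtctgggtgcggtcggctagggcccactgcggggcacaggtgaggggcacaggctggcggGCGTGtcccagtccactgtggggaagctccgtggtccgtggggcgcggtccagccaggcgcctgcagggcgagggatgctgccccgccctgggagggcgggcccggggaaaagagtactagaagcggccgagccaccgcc
Gpnmb: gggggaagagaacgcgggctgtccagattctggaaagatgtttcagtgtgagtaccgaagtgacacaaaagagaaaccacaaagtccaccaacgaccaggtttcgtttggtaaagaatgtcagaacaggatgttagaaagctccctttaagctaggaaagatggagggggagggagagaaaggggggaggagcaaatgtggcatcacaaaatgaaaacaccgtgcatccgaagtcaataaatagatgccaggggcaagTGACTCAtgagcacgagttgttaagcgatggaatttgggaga
Plin2 and Abca1 held an E-box, which 7.15% of all 32851 windows of this length held. Gpnmb held an AP-1 site, against 5.20% of windows. GCGTG was found in Trem2, Plin2 and Lgals3 and in 32.4% of windows, and ACGTG in the Plin2 and Abca1 windows and in 19.6%. The shown window of Apoe, its 2 other windows and those of Spp1 and Cd36 held none of these letters. The perfect DR1 and DR4 direct repeats, elements recognised by PPAR and LXR receptors, were in 0.0396% and 0.0152% of windows and in none of the 8 genes. A match is a string of letters and does not show binding.

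Some of the 10 genes were counted mostly in macrophages in these tumors, and others were not. Macrophages held 81.1% of all Trem2 UMIs of the WT cells and 75.8% of those of the Siah2-/- cells, and 79.7% and 72.8% of the Apoe UMIs. For Lpl the shares were 69.8% and 65.7%, for Abca1, Fabp5 and Lgals3 they lay between 50.4% and 68.1%, and for Cd36 they were 46.6% and 56.3%. Plin2 had 40.3% and 57.3% of its UMIs in macrophages, and CD45-negative cells held 38.6% in WT and 7.54% in Siah2-/-. Gpnmb and Spp1 were counted mostly outside macrophages, against the label. CD45-negative cells held 84.9% and 53.4% of the Gpnmb UMIs, against 7.17% and 21.3% in macrophages. For Spp1 they held 81.4% and 56.4%, against 3.66% and 6.05% in macrophages. These shares move with how many CD45-negative cells each library held.

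**Figure D1:**
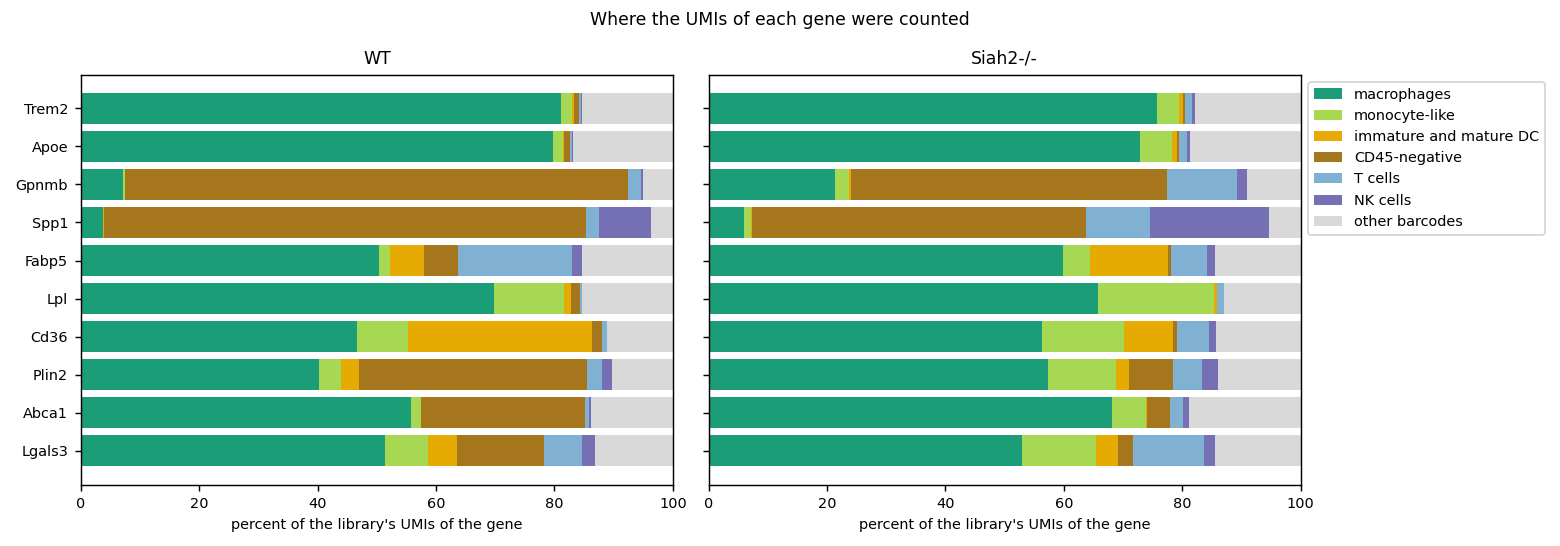
Share of the UMIs of each gene by cell class, in percent of the library's UMIs of that gene, for WT (left) and Siah2-/- (right). Other barcodes are those with T cell and macrophage markers together and those in no gate. Macrophages hold most of the Trem2 and Apoe UMIs, and CD45-negative cells most of the Gpnmb and Spp1 UMIs (84.9% and 81.4% in WT).

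RNA free in the suspension adds UMIs to every droplet. Its share was 3.51% of the UMIs of WT and 5.46% of Siah2-/- cells, set by macrophage genes in T and NK cells. The T and NK gates took only cells with under 10 UMIs of these genes per 10000, which bounds the estimate. In macrophages it would account for 1.13% and 2.19% of the Trem2 UMIs, 1.03% and 2.32% of the Apoe UMIs and 2.33% and 3.23% of the Lgals3 UMIs. For Fabp5 it was 3.65% and 3.38%, and for Plin2 3.15% and 4.16%. For these 5 genes and for Abca1 the expected free RNA was a small part. It was a large part for Gpnmb, 48.1% in WT and 78.2% in Siah2-/-, and was 19.5% and 33.1% for Spp1, 10.4% and 28.8% for Lpl and 21.6% and 22.2% for Cd36.

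Across all macrophages, Siah2-/- cells had more Fabp5, Plin2 and Lgals3 and less Apoe than WT cells, with Trem2 within 1.02-fold. Of the 10 genes, all with at least 50 UMIs, 5 were at least 1.5-fold higher, where 7.60% of 10682 genes with 50 UMIs were, and 1 was at least 1.5-fold lower, where 8.21% were. The 5 higher include Gpnmb and Cd36, which rest on few UMIs. The median log2 ratio of the 10 genes was 0.61, and that of all these genes was -0.05. The median moved with the processing. With each macrophage gate weighted equally it was 0.11, with free RNA subtracted it was 0.24, and in the 5 gates described below, pooled, it was 0.37. Where these settings changed the direction or the call of a gene, the value is given with that gene.

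Trem2 (ENSMUSG00000023992, chromosome 17, 48346401 to 48354147, plus strand of GRCm38) encodes the lipid-sensing receptor. It was at 349 CPM (341 to 357) in WT and 342 CPM (334 to 350) in Siah2-/- macrophages, a log2 ratio of -0.03 (-0.08 to 0.02). It was detected in 62.2% and 64.8% of macrophages after every cell was thinned to 4000 UMIs, and in 82.7% and 84.3% before thinning. No cell was too shallow to be thinned. T cells, which should lack it, had 1.95% and 2.83% after thinning, with median depths of 9356.0 and 7268.0 UMIs, against 10600.5 and 10235.0 in macrophages. Trem2 in macrophages thus stood far above its level in T cells, 4.06 and 7.22 CPM, and the interval of its ratio included 0. By gate its log2 ratio ran from -0.34 in resident-like to 0.44 in the remaining macrophages, inside 1.5-fold in all 5 gates.

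Apoe (ENSMUSG00000002985, chromosome 7, 19696109 to 19699188, minus strand) encodes the apolipoprotein that carries cholesterol and is a ligand of TREM2. Its level was 18397 CPM (18340 to 18454) in WT and 10286 CPM (10242 to 10331) in Siah2-/- macrophages, a log2 ratio of -0.84 (-0.85 to -0.83). Nearly every macrophage had it, 99.3% and 97.6% after thinning. T cells had Apoe in 52.2% and 61.9% of thinned cells at 186 and 259 CPM, near the 189 and 239 CPM that free RNA would give in macrophages. The free RNA share was itself set from macrophage genes in T and NK cells, so the match is no independent check. Apoe was lower in each of the 5 macrophage gates described here, from -0.92 (-0.93 to -0.90) in MHC class II to -0.48 (-0.50 to -0.46) in cycling macrophages. In 3 of the 5 gates it was at least 1.5-fold lower. The resident-like gate had 31024 CPM in WT and 18994 CPM in Siah2-/-, and the MHC class II gate 17556 and 9301 CPM. Over the 13 alternative settings the log2 ratio in all macrophages stayed between -0.97 and -0.69.

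Lpl (ENSMUSG00000015568, chromosome 8, 68880491 to 68907448, plus strand) encodes lipoprotein lipase, which frees fatty acids from lipoproteins. It was sparse, with 178 UMIs or 8.27 CPM (7.10 to 9.58) in WT and 153 UMIs or 7.54 CPM (6.39 to 8.83) in Siah2-/- macrophages. Its log2 ratio was -0.13 (-0.46 to 0.19), an interval that includes 0. After thinning, 2.44% and 1.64% of macrophages had a UMI, against 0.150% and 0.118% of T cells. Lpl was also found in monocyte-like cells, at 18.2 and 11.6 CPM. In the interferon-induced gate it was at 2.88 CPM in WT and 15.4 CPM in Siah2-/-, but 1 Siah2-/- cell held 48.8% of those 43 UMIs.

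Cd36 (ENSMUSG00000002944, chromosome 5, 17781690 to 17888801, minus strand) encodes a scavenger receptor that takes up oxidised lipoprotein and fatty acids. It had 54 UMIs or 2.51 CPM (1.89 to 3.27) in WT and 94 UMIs or 4.63 CPM (3.74 to 5.67) in Siah2-/- macrophages, a log2 ratio of 0.88 (0.39 to 1.39). With each macrophage gate weighted equally it was 0.51, inside 1.5-fold, and with every cell thinned it was 1.62. After thinning, 0.609% and 1.02% of macrophages had it. No macrophage gate reached 50 UMIs. Single cells weighed heavily: all 11 Cd36 UMIs of the Siah2-/- resident-like gate came from 1 cell, as did 84.6% of the 13 UMIs of the remaining macrophages. Its highest level was in immature DC of WT, 23.7 CPM (16.5 to 33.0), against 9.27 CPM (4.79 to 16.2) in Siah2-/-. In T cells Cd36 was at 0.135 and 0.591 CPM.

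Fabp5 (ENSMUSG00000027533, chromosome 3, 10012548 to 10016607, plus strand) encodes a fatty acid binding protein. Near-identical copies of it in the genome can share its reads, so its counts are uncertain. Its level was 110 CPM (106 to 114) in WT and 362 CPM (354 to 371) in Siah2-/- macrophages, a log2 ratio of 1.72 (1.65 to 1.79), the largest of the 10. After thinning, 25.4% (23.4 to 27.4) of WT and 40.2% (37.9 to 42.6) of Siah2-/- macrophages had it. Both the share of positive cells and the level were higher. Fabp5 was at least 1.5-fold higher in all 5 gates, from 1.08 (0.89 to 1.27) in cycling to 2.03 (1.69 to 2.38) in the remaining macrophages. In the resident-like gate it was at 218 CPM (201 to 236) in WT and 883 CPM (834 to 935) in Siah2-/-. T cells went the other way, with 122 CPM (114 to 130) in WT and 48.8 CPM (45.4 to 52.5) in Siah2-/-. That gate held 667 WT and 1695 Siah2-/- cells of a different mix, with all 7 genes of the cycling list lower in Siah2-/-, such as Top2a at 239 and 107 CPM and Mki67 at 110 and 44.3 CPM, and Cd4 at 17.6 and 105 CPM, whose part in the Fabp5 difference was not tested. The 13 alternative settings gave 1.47 to 1.80 in all macrophages.

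Plin2 (ENSMUSG00000028494, chromosome 4, 86648386 to 86670060, minus strand) encodes the droplet coat protein perilipin 2. Its level was 136 CPM (131 to 141) in WT and 236 CPM (229 to 243) in Siah2-/- macrophages, a log2 ratio of 0.80 (0.73 to 0.87). After thinning it was detected in 41.3% (39.0 to 43.6) and 55.5% (53.2 to 57.9) of macrophages, and in 7.80% and 9.79% of T cells. Plin2 was higher in all 5 gates, by 0.27 (0.05 to 0.47) in cycling to 0.94 (0.72 to 1.16) in resident-like macrophages, and past 1.5-fold in 2 of them. In the resident-like gate it was at 130 CPM (117 to 144) in WT and 249 CPM (223 to 277) in Siah2-/-. With the 5 gates pooled its log2 ratio was 0.58, which is inside 1.5-fold.

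Abca1 (ENSMUSG00000015243, chromosome 4, 53030787 to 53159895, minus strand) encodes the transporter that moves cholesterol out of the cell. It was at 27.6 CPM (25.4 to 29.9) in WT and 38.8 CPM (36.1 to 41.6) in Siah2-/- macrophages, a log2 ratio of 0.49 (0.34 to 0.65). After thinning, 9.86% and 13.4% of macrophages had it, against 0.450% and 0.767% of T cells. The difference varied with the gate. It was 0.63 (0.31 to 0.95) in MHC class II and -0.14 (-0.52 to 0.23) in resident-like macrophages, and 0.16 with the 5 gates pooled. DC had almost none, with 2 UMIs in Siah2-/- immature DC and 0 UMIs in WT immature DC and in mature DC of both libraries, with upper limits of 2.50, 7.21 and 5.05 CPM.

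Lgals3 (ENSMUSG00000050335, chromosome 14, 47367751 to 47386160, plus strand) encodes galectin-3, a lectin that macrophages secrete. Its level was 1374 CPM (1359 to 1390) in WT and 2539 CPM (2517 to 2561) in Siah2-/- macrophages, a log2 ratio of 0.89 (0.86 to 0.91). Lgals3 was detected in 91.2% and 99.2% of macrophages after thinning. It was higher in all 5 gates, from 0.49 (0.45 to 0.52) in MHC class II to 1.22 (1.15 to 1.29) in resident-like macrophages, and past 1.5-fold in 4 of them. Resident-like cells had 1143 CPM (1104 to 1183) in WT and 2660 CPM (2574 to 2749) in Siah2-/-. T cells also had more Lgals3 in Siah2-/-, 498 and 772 CPM, and empty droplets had 913 and 1500 CPM. The 13 alternative settings gave 0.65 to 0.96 in all macrophages.

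Gpnmb (ENSMUSG00000029816, chromosome 6, 49036546 to 49070929, plus strand) encodes a lysosomal and surface glycoprotein. In all macrophages it had 88 UMIs or 4.09 CPM (3.28 to 5.04) in WT and 137 UMIs or 6.75 CPM (5.67 to 7.98) in Siah2-/-, a log2 ratio of 0.72 (0.33 to 1.13). T cells had 3.66 and 4.99 CPM, and after thinning 1.20% and 1.53% of T cells had a UMI, against 0.831% and 1.53% of macrophages. The share in macrophages as a whole was thus no higher than in T cells and is not read as expression, although free RNA would account for only 48.1% of the WT UMIs. The resident-like gate was above T cells, with intervals of 12.5 to 22.5 CPM in WT and 7.36 to 20.2 CPM in Siah2-/-, and with 56.2% and 41.2% of the UMIs in 1 cell of each library. Subtracting free RNA turned the log2 ratio to -0.50, and weighting the gates equally turned it to -0.06. CD45-negative cells had 50.9 CPM (47.8 to 54.0) in WT and 90.5 CPM (81.1 to 101) in Siah2-/-.

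Spp1 (ENSMUSG00000029304, chromosome 5, 104435118 to 104441050, plus strand) encodes osteopontin, a secreted ligand of integrins and CD44. Macrophages had 176 CPM (170 to 182) in WT and 133 CPM (128 to 138) in Siah2-/-, a log2 ratio of -0.41 (-0.48 to -0.33). T cells had 310 and 317 CPM, and 1 Siah2-/- T cell held 50.5% of the UMIs of that gate. CD45-negative cells had 4113 CPM (4085 to 4141) and 6634 CPM (6553 to 6717), and NK cells 2217 CPM (2172 to 2263) and 1557 CPM (1525 to 1589). After thinning, 98.4% and 99.3% of CD45-negative cells, 74.2% and 56.5% of NK cells, 26.6% and 23.6% of macrophages and 22.3% and 21.4% of T cells had a Spp1 UMI. Spp1 thus marked CD45-negative and NK cells here. In macrophages it was lower in all 5 Siah2-/- gates, past 1.5-fold in 1 of them, the remaining macrophages at -1.36 (-1.66 to -1.07), and with the 5 gates pooled the log2 ratio was -0.66. It was -0.89 with each macrophage gate weighted equally and -0.64 with free RNA subtracted, past 1.5-fold under all 3 of these settings, but -0.01 with all barcodes of at least 1000 UMIs.

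**Figure D2:**
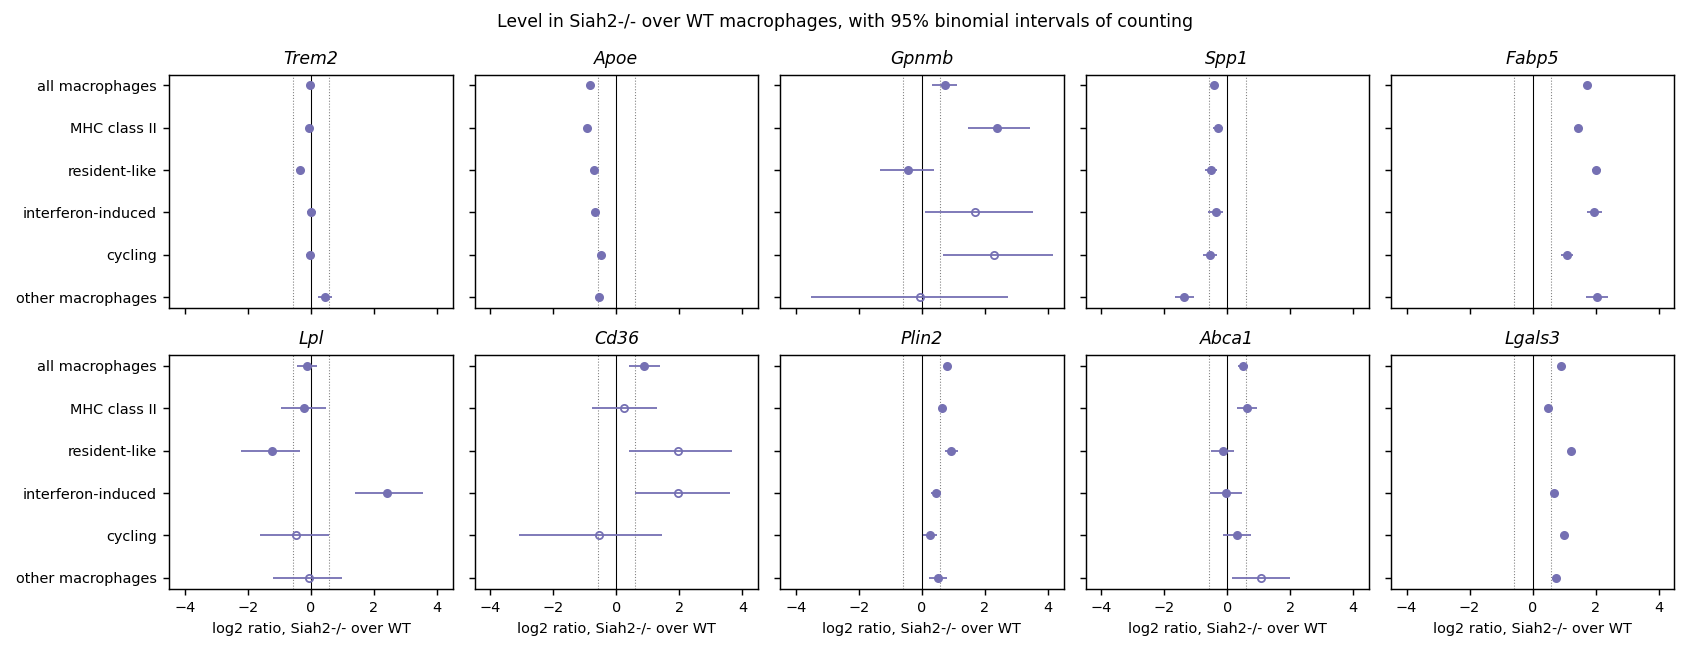
Log2 ratio of the level in Siah2-/- over WT (x axis) for each gene in all macrophages and in 5 macrophage gates (y axis). Points carry 95% binomial intervals of counting, open points rest on under 50 UMIs, dotted lines mark 1.5-fold, and a gate with no UMI in 1 library has no point. Apoe lies left of 0 and Fabp5, Plin2 and Lgals3 right of 0 in all 5 gates, while Trem2 stays inside the dotted lines.

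Counts over the 10 genes differed by gate. In the MHC class II gate 9 had 50 UMIs, with 4 higher (background 6.56%) and 1 lower (3.47%). The 4 included Gpnmb, on 12 and 50 UMIs, of which 1 Siah2-/- cell held 28.0%. Its levels there, 1.36 and 7.12 CPM, were near the 1.97 and 5.28 CPM that free RNA would give in macrophages and the 3.66 and 4.99 CPM of T cells. The resident-like gate had 3 higher (9.51%) and 2 lower (9.96%) of 9, the interferon-induced gate 3 higher (6.98%) and 1 lower (5.90%) of 8, and the cycling gate 2 higher (6.07%) and 0 lower (5.62%) of 7. Lpl was 1 of the 2 lower in resident-like cells, where 1 WT cell held 35.9% of its 64 UMIs. It was also 1 of the 3 higher in interferon-induced cells, where 1 Siah2-/- cell held 48.8% of its 43 UMIs. Fabp5 was among the higher genes in each of these 4 gates. Each of the 40 calls on 50 UMIs, over all gates, was recomputed without the cell that held the most UMIs of the gene in each library, which for the single gates was chosen after the data had been seen, and 39 kept their side of 1.5-fold.

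Markers of other cells moved between the libraries in macrophages. The T cell list, 6 of 7 genes in the table, summed to 34.8 CPM in WT and 81.5 CPM in Siah2-/- macrophages, with 5 of its 6 genes at least 1.5-fold higher and none at 0. By gate the sum ran from 28.9 to 47.7 CPM in WT and from 75.0 to 110 CPM in Siah2-/-. The NK cell list summed to 12.5 and 24.8 CPM, the neutrophil list to 65.2 and 123 CPM and the endothelial list to 16.8 and 32.5 CPM. The monocyte list was at 2286 and 2475 CPM, the mature DC list at 147 and 176 CPM, the immature DC list at 47.4 and 31.3 CPM and the tumor-like list at 16.4 and 13.7 CPM. The B cell list had a log2 ratio of -0.59. The fibroblast-like list went the other way, with 164 and 70.4 CPM and 6 of 7 counted genes lower. Their part in the differences of the 10 genes was not tested. In T cells Apoe was at 186 and 259 CPM and Fabp5 at 122 and 48.8 CPM.

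The genes were not spread evenly over the states. By the mean level of both libraries over the 5 states compared (MHC class II, resident-like, interferon-induced, cycling and monocyte-like), 7 genes were highest in resident-like macrophages, Trem2, Apoe, Gpnmb, Spp1, Fabp5, Lpl and Abca1, where 23.9% of 10494 genes were. Of these, Spp1 was at 312 and 217 CPM there, against 310 and 317 CPM in T cells, where 1 Siah2-/- cell held 50.5% of the UMIs. For Gpnmb, 1 cell of each library held 56.2% and 41.2% of the resident-like UMIs. Cd36 and Lgals3 were highest in monocyte-like cells, where 20.3% were, and Plin2 in interferon-induced macrophages, where 9.71% were. Macrophages outside these 5 states were not ranked. The state was not fixed for all of them. In Siah2-/- alone Lpl was highest in interferon-induced cells and Cd36 in resident-like cells, where 1 cell held all of its UMIs. Lpl was highest in monocyte-like cells under 6 alternative settings and Cd36 in resident-like cells under 1, and with clusters in place of gates Gpnmb was highest in cycling and Plin2 in monocyte-like cells. Apoe stood clear of its neighbours in resident-like cells, with a log2 ratio over MHC class II cells of 0.82 (0.81 to 0.83) in WT and 1.03 (1.01 to 1.05) in Siah2-/-. Trem2 stood clear there too, at 572 CPM (544 to 600) in WT and 451 CPM (415 to 488) in Siah2-/-, with cycling cells next at 373 CPM (354 to 392) and 367 CPM (340 to 395). Monocyte-like cells had the lowest Trem2 of the 5 states, 104 and 83.1 CPM. The order of Plin2 was less clear, since its intervals in interferon-induced and monocyte-like cells overlapped in both libraries, 186 CPM (172 to 201) against 160 CPM (141 to 181) in WT and 253 CPM (234 to 272) against 243 CPM (228 to 259) in Siah2-/-.

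Resident-like cells were compared with MHC class II cells for genes with at least 50 UMIs over both gates in each library. In both libraries 6 of the members were at least 1.5-fold higher, Trem2, Apoe, Gpnmb, Spp1, Fabp5 and Abca1, where 4.17% of 7813 genes were. Lpl was also past 1.5-fold, at 2.19 (1.61 to 2.77) in WT and 1.18 (0.12 to 2.16) in Siah2-/-. It was not counted, since Siah2-/- had only 13 UMIs in resident-like and 30 in MHC class II cells. Cd36 had too few UMIs as well. Fabp5 had a log2 ratio of 1.39 (1.24 to 1.55) in WT and 1.98 (1.87 to 2.09) in Siah2-/-, and Abca1 2.09 (1.77 to 2.40) and 1.31 (0.93 to 1.69). Gpnmb passed in both, but 1 WT cell held 56.2% of its 48 UMIs in that gate, and its Siah2-/- interval, -0.06 to 1.65, included 0. Plin2 was inside 1.5-fold in both libraries, at 0.15 (-0.02 to 0.32) in WT and 0.44 (0.26 to 0.61) in Siah2-/-. Lgals3 lay on opposite sides of 0 in the libraries, at -0.34 (-0.40 to -0.28) in WT and 0.39 (0.34 to 0.44) in Siah2-/-.

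**Figure D3:**
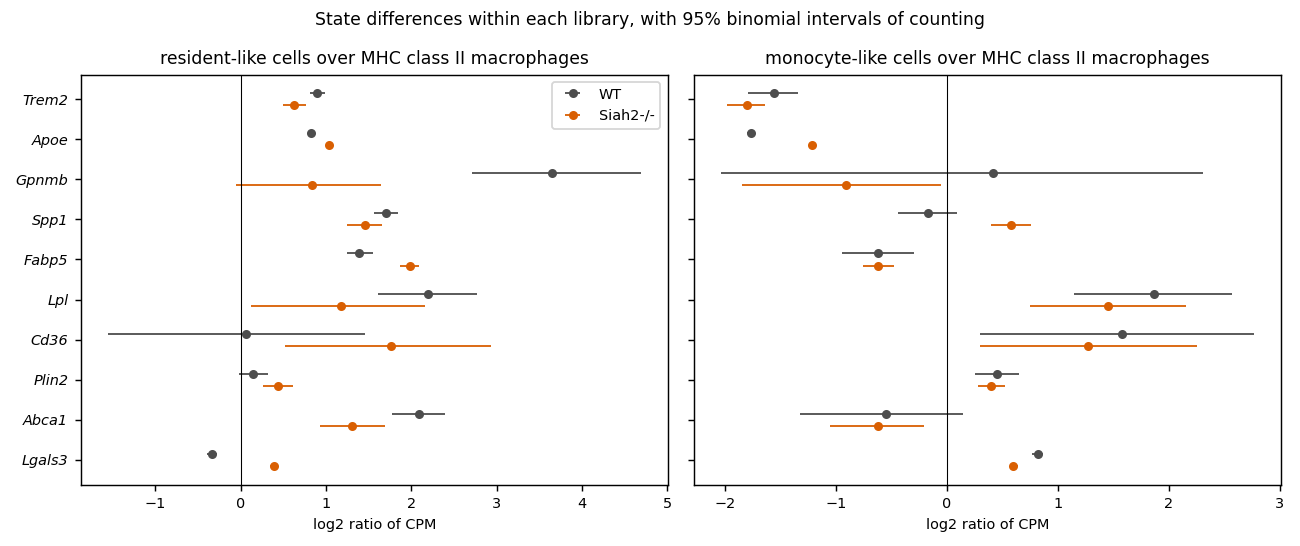
Log2 ratio of CPM in resident-like (left) and monocyte-like (right) cells over MHC class II macrophages (x axis) for each gene (y axis), in WT (grey) and Siah2-/- (orange), with 95% binomial intervals of counting. Trem2 and Apoe lie right of 0 in the resident-like panel (0.82 and 1.03 for Apoe) and left of 0 in the monocyte-like panel (-1.77 and -1.22), while Lgals3 lies right of 0 in both libraries in the monocyte-like panel (0.82 and 0.60).

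Monocyte-like cells, 199 in WT and 565 in Siah2-/-, had less Trem2 and Apoe and more Lgals3 than macrophages as a whole, in both libraries. Of 8 genes with 50 UMIs, 2 were at least 1.5-fold higher in Siah2-/- (background 8.64%), Fabp5 at 1.43 (1.11 to 1.77) and Plin2 at 0.60 (0.40 to 0.80), and 1 was lower (5.48%), Lpl at -0.64 (-1.34 to 0.07), an interval that includes 0. Lgals3 was at 2549 CPM in WT and 3083 CPM in Siah2-/- monocyte-like cells. Apoe was at 5151 and 3996 CPM, below each of the 5 macrophage gates of its library. Against MHC class II cells, Lpl was higher in monocyte-like cells by a log2 ratio of 1.87 (1.15 to 2.57) in WT and 1.45 (0.75 to 2.16) in Siah2-/-, and Cd36 by 1.58 (0.30 to 2.77) and 1.27 (0.30 to 2.26). Both rest on few UMIs, 30 and 46 for Lpl and 10 and 23 for Cd36 in monocyte-like cells. Fabp5 was lower there, at -0.62 (-0.95 to -0.30) and -0.62 (-0.76 to -0.48).

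Fabp5 was high in mature DC. These 46 and 75 cells had it at 426 CPM (372 to 487) in WT and 2073 CPM (1970 to 2180) in Siah2-/-, a log2 ratio of 2.28 (2.08 to 2.49), with 45.7% and 81.3% of thinned cells positive. The Siah2-/- level was above that of each of the 5 macrophage gates. Of 6 genes with 50 UMIs, 3 were higher in mature DC (background 11.1%), Fabp5, Lgals3 and Spp1, and 0 were lower (7.79%). Spp1 was at 37.1 and 68.5 CPM, below its level in T cells. Apoe in mature DC was at 2196 and 2155 CPM, but 1 cell held 25.8% of the WT and 1 held 49.9% of the Siah2-/- UMIs. In immature DC, 124 and 130 cells, 2 of 5 were higher (10.8%), Fabp5 at 1.39 (0.88 to 1.92) and Apoe at 1.38 (1.19 to 1.58), and 1 was lower (9.78%), Spp1 at -0.71 (-1.13 to -0.30). In 1 WT cell lay 59.2% of the 142 Spp1 UMIs of WT immature DC, and without the top cell of each library the ratio turned to 0.44 (-0.08 to 0.97). Apoe in immature DC was at 210 CPM in WT, close to the 186 CPM of T cells, and at 548 CPM in Siah2-/-, where 1 cell held 12.8% of the UMIs.

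In CD45-negative cells 3 of 8 genes were at least 1.5-fold higher in Siah2-/- (background 8.54%) and 0 were lower (9.01%). They were Spp1 at 0.69 (0.67 to 0.71), Gpnmb at 0.83 (0.65 to 1.01) and Trem2 at 1.36 (0.75 to 1.94). The gate was a different mix in each library, 788 and 151 cells, with all genes of the cycling list lower in Siah2-/-. Birc5 was at 137 and 45.1 CPM and Cenpf at 64.1 and 21.9 CPM. The part of this mix in the 3 differences was not tested. Trem2 was at 3.81 and 9.76 CPM there, near the 3.95 and 7.47 CPM that free RNA would give in macrophages. Plin2 was at 137 CPM (132 to 142) in WT and 166 CPM (154 to 180) in Siah2-/- CD45-negative cells, and Apoe at 224 and 242 CPM, against 186 and 259 CPM in T cells.

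**Figure D4:**
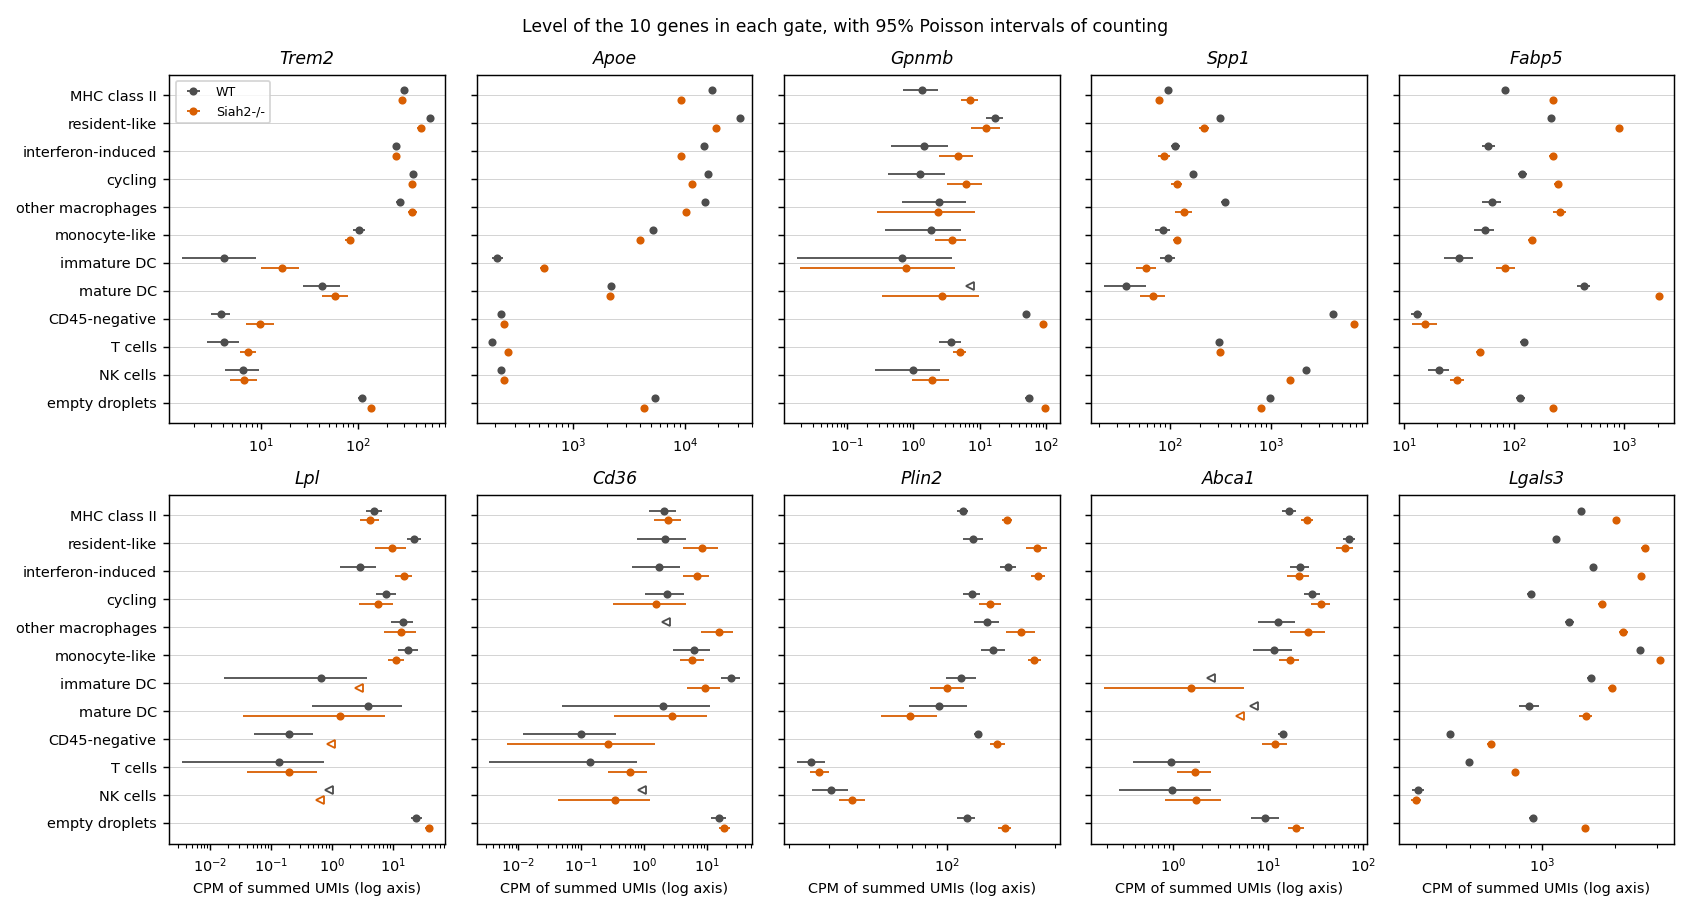
Level of each gene (x axis, CPM of summed UMIs, log axis, with a scale of its own in each panel) in 11 gates and in empty droplets of 10 to 100 UMIs (y axis), in WT (grey) and Siah2-/- (orange). Bars are 95% Poisson intervals, and open triangles are the upper limit where no UMI was counted. Apoe in Siah2-/- lies left of WT in each macrophage gate, Fabp5 lies right, and Spp1 peaks in CD45-negative and NK cells.

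Other genes of the same pathways were counted in all macrophages against the same 1.5-fold limit. The lists hold genes with at least 50 UMIs, and their backgrounds are the 7.60% higher and 8.21% lower given above. Of 19 lysosome genes 2 were higher and 2 lower, with a median log2 ratio of -0.08. The tetraspanin Cd9 was at 80.4 and 162 CPM, or 1.01 (0.93 to 1.10). Of 6 genes listed for TREM2 signalling 1 was higher, Trem1, at 1.19 (1.03 to 1.35). It encodes a separate activating receptor of myeloid cells. The other genes of the list were inside 1.5-fold, with the kinase Syk at 0.26 (0.12 to 0.40). The median of that list was 0.16.

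Among 11 genes listed as LXR targets 1 was higher and 3 lower, with a median of -0.13. That list includes the LXR receptor genes Nr1h3 and Nr1h2, and the 1 higher was Nr1h3, at 0.67 (0.48 to 0.87). Apoc1 and Apoc4, apolipoproteins encoded next to Apoe, were at -1.26 (-1.71 to -0.83) and -1.54 (-2.52 to -0.64), the second on 43 and 14 UMIs. None of 14 cholesterol synthesis and uptake genes passed 1.5-fold, with a median of -0.08 and the sterol enzymes Idi1 at -0.39 (-0.58 to -0.19) and Cyp51 at -0.38 (-0.55 to -0.22). Of 9 fatty acid binding and PPAR genes 1 was lower, the nuclear receptor Pparg, at 11.7 and 4.78 CPM or -1.29 (-1.64 to -0.94). Acadl, a fatty acid oxidation enzyme, was at -0.32 (-0.44 to -0.21) and the median was -0.08.

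Lipid droplet genes had 3 of 10 higher and 0 lower, with a median of -0.02. Hilpda, which restrains breakdown of droplet lipid, was at 24.4 CPM in WT and 110 CPM in Siah2-/-, or 2.17 (2.04 to 2.31). G0s2, another inhibitor of droplet lipolysis, was at 0.790 and 4.29 CPM, or 2.44 (1.68 to 3.28). Of 7 scavenger receptor genes 2 were higher and 3 lower, with a median of -0.18. Gas6, a bridging ligand that is also a marker of the resident-like gate, was at -3.20 (-3.47 to -2.93), and its receptor Axl at -0.67 (-0.74 to -0.61). None of 9 galectin and osteopontin receptor genes passed 1.5-fold. Cd44, an osteopontin receptor, was at 0.51 (0.44 to 0.59), Lgals9 at -0.46 (-0.53 to -0.40), and the median was 0.02. The medians of the 8 lists ran from -0.18 to 0.16, against -0.05 over all genes.

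Over the 22 combinations of gate and library, which share libraries and depth and are given as a description, the log2 levels of Trem2 and Apoe had a Pearson r of 0.99. C3ar1 and Cd93 were the next genes most like both, at 0.98 to 0.99. Lpl was most like C5ar1, Ethe1 and Slc11a1 (0.91 each), Abca1 most like Dse, Sepp1 and Itm2b (0.93 to 0.94), and Plin2 most like Pla2g4a, App and Tgm2 (0.94 to 0.95). For Lgals3 these were Bst1, Mefv and Trib1 (0.94 to 0.95), for Fabp5 Pfkfb3, Ggta1 and Rab8b (0.84 to 0.85), and for Cd36 Rasgrp4, Gm6377 and Ifitm6 (0.80 to 0.83). Spp1 was most like Plscr4, Vegfc and Eya1 (0.93 to 0.94) and Gpnmb most like Tnks2, Bsg and Rai14 (0.86 to 0.90). Spp1 and Trem2 had an r of -0.50, and Gpnmb and Trem2 -0.06, so the pattern of these genes over the cells of the tumor was not shared by all 10.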

How the data were processed

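Single-cell RNA from 1 WT and 1 Siah2-/- library was counted. The authors made the deposited counts with Cell Ranger on mm10/GRCm38 (version not given in the sources used here) after bcl2fastq, counting mapped reads once per UMI. They removed cells with extreme numbers of genes and many mitochondrial transcripts. The deposited table of counts held 14654 genes. A deposited table of natural log normalized values, made by the authors, gave only the list of 10075 cells analysed. For the 10 genes the table and the unfiltered matrices of counts held the same value in every cell (0 differing). No column lacked a sample.

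Cells were gated by summed UMIs of 17 marker lists per 10000 UMIs of the cell, in a fixed order, with thresholds set after the marker distributions had been seen. Macrophages needed 10, resident-like cells 7, interferon-induced cells 60, cycling cells 4 and MHC class II cells 300. Of 4335 macrophages and monocyte-like cells, 414 lay within 20% of the interferon threshold and 214 within 20% of the resident-like threshold. The cells of 1 further macrophage gate count toward all macrophages, but that gate and 1 lysosome gene are not reported here. No doublet caller was run. Barcodes with T cell and macrophage markers, 432 and 472, had a gate of their own. The libraries shared 34 barcode sequences.

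Counts were summed per gate and library, and scaled to the total of the same cells. With 1 library per genotype there was no test and no p-value. The 10 genes, the gene lists and the marker lists were chosen with earlier results of these data known. All 10 genes are given, as are the 2 genes with the largest log2 ratio of each of 8 lists among those with 50 UMIs, and the 3 genes most like each member by Pearson r among genes with 500 UMIs. The ratio and its interval were checked on simulated counts. Python 3.11.15, numpy 2.4.6, scipy 1.17.1 and scanpy 1.11.5 were used, and edgeR 4.0.16 in R 4.3.3 for TMM factors. Alternatives were other sets of cells, sources of counts, gates, scaling, free RNA and cell weights.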

Additional observations from a re-analysis of the deposited data

Results flagged for a closer look

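For 4 genes the difference between libraries was at least 1.5-fold in opposite directions in 2 gates. These contrasts rest on 1 library per genotype and the difference between gates was not tested. Apoe had a log2 ratio of -0.92 in MHC class II macrophages and 1.38 in immature DC, where its WT level was close to that of T cells. Fabp5 was at -1.32 in T cells, where the cycling gene Top2a was also lower in Siah2-/- (239 and 107 CPM), and 2.28 in mature DC. Spp1 was at -1.36 in the remaining macrophages, on 581 and 118 UMIs, and at 0.88 in mature DC, on 19 and 50 UMIs. Lpl was at -1.23 in resident-like macrophages, where 1 WT cell held 35.9% and 1 Siah2-/- cell 30.8% of the UMIs, and at 2.42 in interferon-induced macrophages, where 1 Siah2-/- cell held 48.8%. Without the top cell of each library these were -1.11 (-2.34 to -0.05) and 1.60 (0.42 to 2.90), on 41 and 9 and on 9 and 22 UMIs.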

How the results depend on the processing

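The 3 summary results (the median and the counts higher and lower) were recomputed under 13 alternatives, 2 of them chosen after the data had been seen. Of 39 values 33 stayed within their limit, which was 0.33 to 0.89 for the median and a factor of 1.5 for a count. The median log2 ratio of 0.61 became 0.24 with free RNA subtracted and 0.11 with each macrophage gate weighted equally. It was 0.37 with only the 5 gates described above pooled. The count of genes higher fell from 5 to 3 with equal weights. The count lower rose from 1 to 2 with free RNA subtracted, with equal weights and with the 5 gates pooled. Gpnmb turned from 0.72 to -0.50 with free RNA subtracted and to -0.06 with equal weights. Apoe, Fabp5 and Lgals3 kept their side of 1.5-fold in all 13, Plin2 in 12, Cd36 in 12 and Gpnmb in 9, while Spp1 passed in 3 and Trem2, Lpl and Abca1 in 0. Equal weights and pooling of 5 gates change the mix of states by construction. Beyond that the cause was not tested. No paired analysis was possible because each genotype has 1 library. Depth limits Cd36 most, which had under 50 UMIs in each macrophage gate, and single cells held large shares of the Gpnmb and Lpl UMIs.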
